A study of Oryza sativa with 6 samples.

Results

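ISPE and ISPG encode enzymes of the plastid methylerythritol phosphate (MEP) pathway, and their transcripts were followed in rice (Oryza sativa) leaves with and without overexpression of OsCGA1, a GATA-type transcription factor. Members were all probe sets assigned to a single gene that carries the symbol or synonym ISPE or ISPG in the rice gene annotation. This gave 1 probe set for ISPE (LOC4327968) and 1 for ISPG (LOC4329911), 2 genes of 17905 that had a probe set of their own. The study hybridized biotin-labelled RNA from leaves of 4-week-old plants to 1-colour Affymetrix Rice Genome Arrays, 3 arrays of wild type plants and 3 of transgenic plants overexpressing OsCGA1, described as biological replicates. All plants came from growth chambers set to a 16 h day (28 °C) and an 8 h night (23 °C). The promoter of the transgene, the number of transgenic lines and the cultivar are not given in the sources used here, and whether an array held 1 plant or several is not stated. The series title concerns chloroplast development, so the comparison asks how leaf RNA responds to extra OsCGA1. The p-values below weigh the difference between genotypes against the spread between these arrays. How much variation between plants or lines that spread covers is not known.

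The MEP pathway runs in the plastid stroma and makes isopentenyl diphosphate and dimethylallyl diphosphate, the building blocks of isoprenoids. From these the plastid makes carotenoids, the phytol tail of chlorophyll, tocopherols, plastoquinone and the precursors of gibberellins and abscisic acid. ISPE is the kinase that phosphorylates CDP-methylerythritol with ATP, step 4 of the 7 steps. ISPG is hydroxymethylbutenyl diphosphate synthase, step 6, an iron-sulfur enzyme that opens the cyclic diphosphate made by ISPF. ISPH, also an iron-sulfur enzyme, then makes the final products. A second route to the same building blocks, the mevalonate pathway, runs outside the plastid.

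Both genes were chosen by their log2 change and an adjusted p under 0.05 in this same contrast, so their values are given as a description and carry no test. Signals are linear MAS5 values, and log2 changes are overexpression minus wild type on log2(signal + 3), with the standard error (SE) of the limma fit and n = 3 arrays per genotype. The adjusted p-values from limma behind the choice were 0.0133 for ISPE and 0.0391 for ISPG. The nearest genes of the pathway and its branches on the other side of the threshold were ISPH, with an adjusted p of 0.0599 from limma, and the tocopherol cyclase gene VTE1, with 0.0604.

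ISPE read 113.2, 110 and 97.3 signal units on wild type arrays 1 to 3 and 163.4, 215.1 and 171.7 on overexpression arrays 1 to 3. Every overexpression array was above every wild type array, and the genotypes did not overlap. The wild type mean was 106.8 ± 8.41 and the overexpression mean 183.4 ± 27.8 (SD, n = 3 each), 1.72 times as high. The log2 change was 0.76 ± 0.15 (SE). The gap between the highest wild type and the lowest overexpression array was 0.52 on the log2 scale, against a pooled SD within genotypes of 0.17. Overexpression replicate 2 was the highest array for ISPE, 0.99 above the wild type mean on the log2 scale, while replicates 1 and 3 were 0.60 and 0.67 above it. Overexpression arrays were more spread, with a coefficient of variation of 15.1% against 7.87% in wild type.

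ISPG read 3129.1, 3283 and 2860.9 signal units on wild type arrays 1 to 3 and 2125.7, 2611.6 and 2249.5 on overexpression arrays 1 to 3. All overexpression arrays were below all wild type arrays. The mean went from 3091 ± 214 to 2329 ± 253 with overexpression (SD, n = 3 each), a difference of -24.7%. The log2 change was -0.41 ± 0.11 (SE). The genotypes were separated by a gap of 0.13 on the log2 scale, which equals the pooled SD within genotypes of 0.13. Overexpression replicate 2 was again the highest of its group and thus the nearest to wild type, 0.24 below the wild type mean on the log2 scale, with replicates 1 and 3 at 0.54 and 0.46 below it. In wild type, replicate 3 was the lowest array for both genes.

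**Figure D1:**
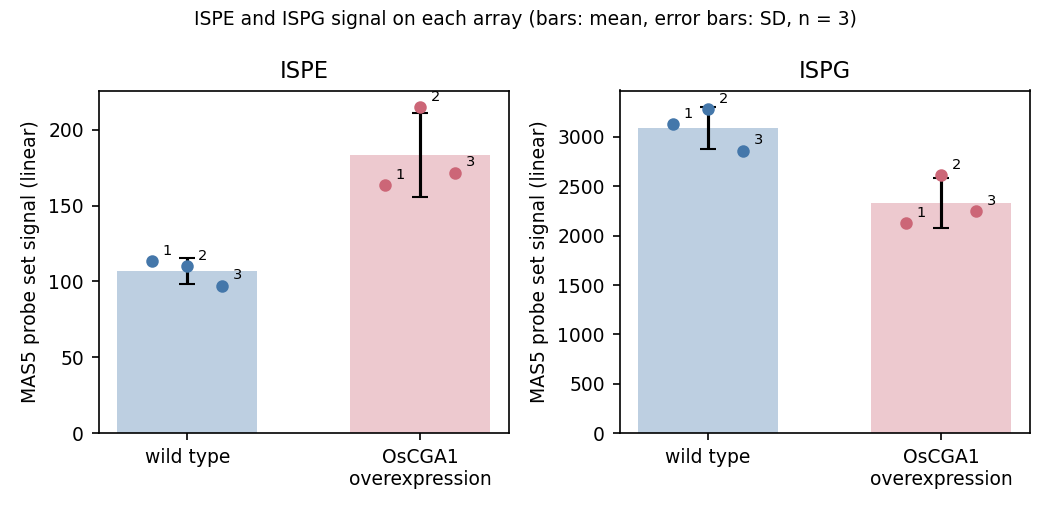
Linear MAS5 signal of the ISPE and ISPG probe sets on each array. Bars are means and error bars SD over 3 arrays per genotype, and the points carry the replicate numbers. ISPE lies higher and ISPG lower on all 3 overexpression arrays, and replicate 2 is the highest overexpression array in both panels.

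Across the whole array, 16.1% of 28456 tested probe sets passed the adjusted p threshold from limma, 8.65% higher and 7.44% lower in overexpression, and 38.7% had genotypes that did not overlap. Nothing is read from the members' separation against these shares, since the contrast chose them. Of all tested probe sets, 7.62% had a higher log2 change than ISPE and 22.4% a lower one than ISPG. The ISPG probe set was brighter than 98.0% of tested probe sets and the ISPE probe set brighter than 60.4%. The brightest and the dimmest tested probe sets leaned lower in overexpression. In the brightest of 20 equal bins, which holds ISPG, the median log2 change of the 1423 probe sets was -0.17, and 20.7% of them had a lower change than ISPG. In the bin of ISPE the median was -0.01, and 8.36% had a higher change than ISPE. Quantile normalization, which gives all arrays the same distribution of signals, left ISPE at 0.74 ± 0.15 (SE) and brought ISPG to -0.32 ± 0.10 (SE).

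**Figure D2:**
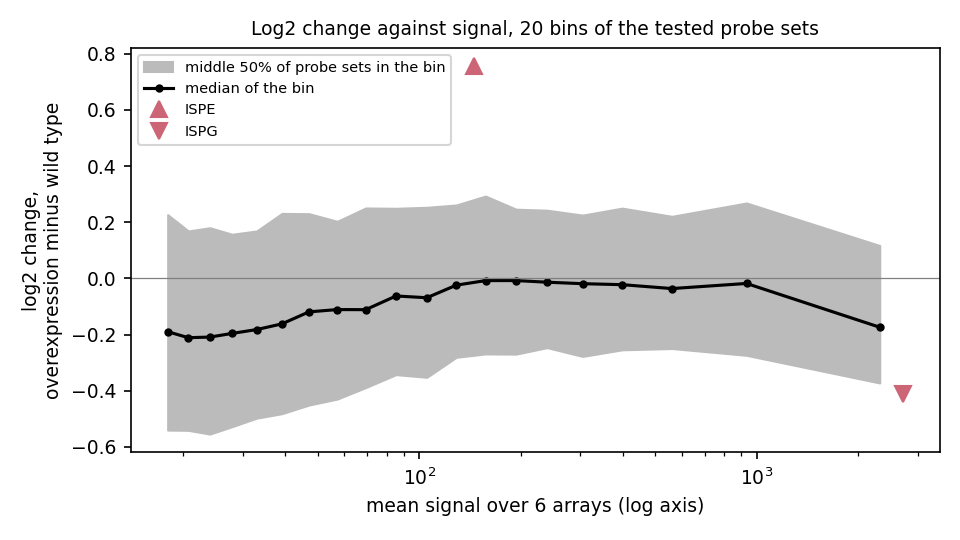
Log2 change against mean signal (log axis) for 28456 tested probe sets in 20 equal bins, shown as the median and the middle 50% of each bin, with ISPE and ISPG as triangles. ISPE stands above the middle range of its bin, where the median is -0.01, and ISPG just below that of the brightest bin, where the median is -0.17.

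Because the genes moved in opposite directions, the log2 difference between them on the same array was also taken, which is not altered by a linear scaling of whole arrays, apart from the small pseudocount. Its absolute size reflects the probes and has no meaning, so only its shift between genotypes is read. That shift is made of the same changes that chose the genes, so it is a description and adds no support to them. The log2 difference ISPE minus ISPG was -4.75, -4.86 and -4.84 on the wild type arrays and -3.68, -3.58 and -3.69 on the overexpression arrays. All overexpression arrays were higher, by 1.17 in the mean, or 2.25-fold, and by 1.06 under quantile normalization. The SD of the difference was 0.06 in each genotype, smaller than the SD of 0.17 and 0.13 of the single genes. Overexpression replicate 2, which stood high for each gene alone, was still the highest of its group in this difference, at -3.58 beside -3.68 and -3.69.

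The other genes of the pathway come from a list of 6 matched by name, of which 5 had a probe set and were tested. ISPD, step 3, had no probe set assigned to it alone and was not analysed here. Of these 5 genes none passed, against 19.1% of 14616 genes counted with 1 probe set each, and 1 had an unadjusted p under 0.05 from limma, against 36.5% of all genes. Their median log2 change was -0.10, beside -0.02 over all genes, and 3 were lower and 2 higher. In 1 of the 5 the genotypes did not overlap, against 42.8% of all genes. The entry into the pathway is DXP synthase, for which CLA1 and a second gene known as DXPS (LOC4342614) were matched. DXPS was added to the list after the annotation was seen. CLA1 read 1926.9, 2197.9 and 2539.8 in wild type leaves and 1359.1, 2897 and 1589.3 with overexpression. Overexpression replicate 2 was above all wild type arrays while replicates 1 and 3 were below them, so the log2 change of -0.26 had a 95% interval from -0.86 to 0.34. Without overexpression replicate 2 the CLA1 log2 change was -0.59 ± 0.14 (SE) and passed. A second CLA1 probe set was too dim to be tested, at 6.4 to 11 in wild type and 13.9 to 22.8 in overexpression.

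DXPS read 159.3, 144.9 and 125.1 in wild type leaves and 166.7, 251.7 and 145.2 with overexpression, again with the highest value on overexpression replicate 2. The genotypes overlapped, and the 95% interval of its log2 change ran from -0.13 to 0.83. DXR, the reductoisomerase of step 2, read 1973.8, 2205.3 and 1887.8 in wild type leaves and 1777.5, 2082.5 and 1809.8 with overexpression. Its log2 change was -0.10 ± 0.11 (SE), with a 95% interval from -0.34 to 0.15 and an adjusted p of 0.553 from limma. Its genotypes overlapped as well.

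ISPF, the cyclase of step 5 that stands between the members, read 700.2, 771.1 and 784.6 in wild type leaves and 932.7, 935.8 and 781.8 with overexpression. Overexpression replicates 1 and 2 were above all wild type arrays, and replicate 3 lay among them. The log2 change was 0.23 ± 0.11 (SE), with a 95% interval from -0.02 to 0.48 and an adjusted p of 0.186 from limma. ISPH, the reductase of step 7 that follows ISPG, read 5557.8, 6259.7 and 6054.7 in wild type leaves and 4482.6, 5100.7 and 4814.1 with overexpression. Its genotypes did not overlap, and its log2 change of -0.31 ± 0.09 (SE) had a 95% interval from -0.53 to -0.09. It missed the threshold with an adjusted p of 0.0599 from limma, and passed without overexpression replicate 2 (-0.36 ± 0.10, SE). Under quantile normalization the ISPH log2 change was -0.05, so the size of its difference depended on how arrays were normalized.

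**Figure D3:**
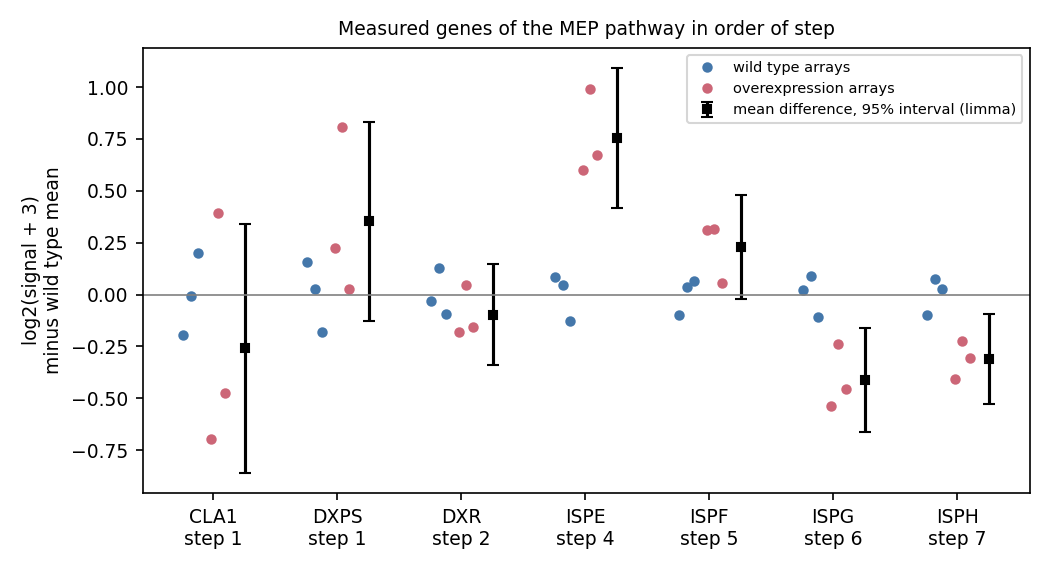
Measured genes of the MEP pathway in order of step, as log2(signal + 3) minus the wild type mean of each gene. Points are single arrays, and squares are mean differences with 95% intervals from limma (n = 3 arrays per genotype). ISPE at 0.76 and ISPG at -0.41 have no overlap between genotypes, as has ISPH at -0.31, and CLA1 shows the widest spread of overexpression arrays.

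Log2 differences on the same array placed each member beside its neighbours in the pathway. ISPE shifted against ISPF by 0.53 on the log2 scale, from -2.78 ± 0.19 to -2.25 ± 0.21 (SD, n = 3 each), with no overlap between genotypes. Against DXR the shift of ISPE was 0.85, from -4.20 ± 0.10 to -3.35 ± 0.08 (SD, n = 3 each), also without overlap. ISPF against ISPG shifted by 0.64, from -2.03 ± 0.15 to -1.39 ± 0.18 (SD, n = 3 each). ISPH against ISPG went from 0.95 ± 0.13 to 1.05 ± 0.07 (SD, n = 3 each), and the genotypes overlapped. That shift between the closing steps of the pathway was 0.10, but it depended on the scaling: under quantile normalization, tried for these differences after the data were seen, it was 0.27, still with overlap. Single arrays left out moved it between 0.04 and 0.17, lowest without wild type replicate 1 and highest without wild type replicate 3, where the genotypes no longer overlapped. The other shifts kept their genotypes apart under quantile normalization, at 0.53 for ISPE against ISPF, 0.81 for ISPE against DXR and 0.52 for ISPF against ISPG. These differences include the members' own contrast and are descriptions without a test.

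Genes that use the products of the pathway in the plastid were taken from a list of 15 matched by name. Most names planned for these branches found no gene, so the list covers them only in part. Of the 15, 13 had a probe set and 12 were tested. Of the 12, 1 passed, lower in overexpression (8% of all genes with 1 probe set each did), and 0 rose, against 11.1%. The median log2 change was -0.19, beside -0.02 over all genes, with 7 lower and 5 higher. In 5 of the 12 the genotypes did not overlap and 5 had an unadjusted p under 0.05 from limma, shares near the 42.8% and 36.5% of all genes. The gene that passed was CPS1, copalyl diphosphate synthase, which commits geranylgeranyl diphosphate to gibberellin synthesis. CPS1 read 147.2, 139.9 and 158.2 in wild type leaves and 84.1, 113.8 and 82.4 with overexpression. It fell by 0.66 ± 0.16 (SE) on the log2 scale with an adjusted p of 0.0276 from limma, and kept that call in 9 of 15 alternative settings. The call ended without any single wild type array (log2 changes of -0.67, -0.71 and -0.62 without replicates 1, 2 and 3), without overexpression replicates 1 (-0.60) and 3 (-0.58), and with the replicate number as a block.

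The tocopherol branch held genes on either side of 0. VTE1, the tocopherol cyclase, read 270.7, 255.6 and 195.9 in wild type leaves and 177.4, 171.2 and 164.5 with overexpression, without overlap. Its log2 change was -0.47 ± 0.14 (SE), with an adjusted p of 0.0604 from limma. VTE4, the methyltransferase that makes alpha-tocopherol, read 1414.7, 1496 and 1521.9 in wild type leaves and 1909.2, 2007.9 and 1596.8 with overexpression. Its genotypes did not overlap either, and its log2 change of 0.31 ± 0.11 (SE) had an adjusted p of 0.0924 from limma. Of the phytoene synthase genes, which open the carotenoid branch, PSY3 had the smallest p. It read 72.4, 73.6 and 68.8 in wild type leaves and 80.7, 108.4 and 124.1 with overexpression, a log2 change of 0.50 ± 0.18 (SE) with an adjusted p of 0.0919 from limma. PSY1 and PSY2 were brighter and did not pass either. Their log2 changes were -0.22 ± 0.14 for PSY1 and 0.15 ± 0.14 for PSY2 (SE).

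The mevalonate list resolved to 2 genes. Only HMG3, an HMG-CoA reductase gene, was tested. It read 30.5, 48.7 and 35.3 in wild type leaves and 108.2, 33.8 and 29.5 with overexpression, so that a single array set its log2 change of 0.33 ± 0.45 (SE, adjusted p 0.640 from limma). Without overexpression replicate 1 the change was -0.23. The gene listed as HMG1 read at most 5.3 on any array and was below the filter.

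**Figure D4:**
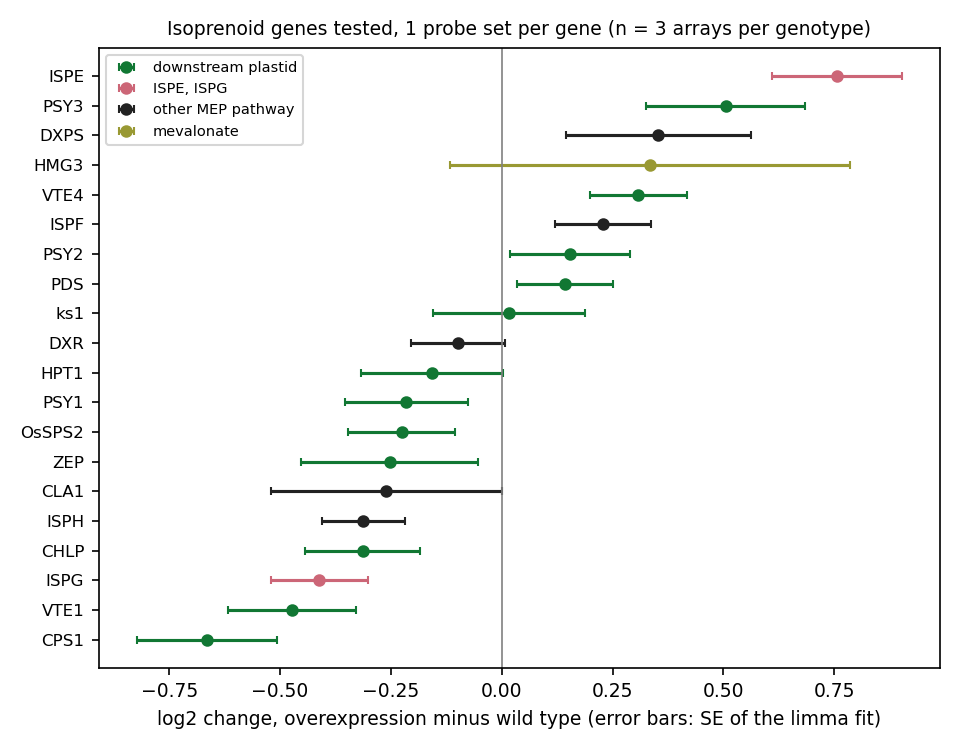
Log2 change, overexpression minus wild type, of the 20 isoprenoid genes tested with 1 probe set each, ordered by value. Points are estimates and error bars SE from limma (n = 3 arrays per genotype). ISPE has the highest value at 0.76, ISPG lies near the lower end at -0.41 beside VTE1 at -0.47, and CPS1 is the lowest at -0.66.

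Overexpression replicate 2 was the highest overexpression array for 16 of these 20 genes, both members included, against 35.5% of all genes counted with 1 probe set each. The ratio of 3' to 5' signal, a sign of RNA quality, separated the genotypes in 2 of 3 actin pairs, with overexpression higher. In 1 of these it was 2.38, 3.11 and 3.02 in wild type leaves and 7.29, 3.75 and 3.25 with overexpression (two-sided exact permutation p = 0.1, the smallest that 3 arrays against 3 allow). In the GAPDH pair at or above the filter it went from 4.74 ± 0.46 to 4.02 ± 0.64 (SD, n = 3 each), with a two-sided exact permutation p of 0.2. The ubiquitin pair, the brightest, read 0.767 ± 0.048 and 0.779 ± 0.036 (SD, n = 3 each, two-sided exact permutation p = 0.6), and the cyclophilin pair 1.60 ± 0.29 and 1.67 ± 0.08 (SD, n = 3 each, two-sided exact permutation p = 0.8). The part of RNA quality in the values of ISPE and ISPG was not tested. Overexpression replicate 1, with the highest actin ratio, was the lowest overexpression array for both genes, as for 12 of the 20 isoprenoid genes. The share over all genes was not taken for that array.

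Markers of leaf mesophyll were bright on every array. The 8 leaf marker probe sets summed to 54999 to 63836 signal units in wild type and 42339 to 49484 in overexpression, with 1 of 8 lower past the threshold, where 7.44% of all tested probe sets were lower and 8.65% higher. The summed leaf markers were thus lower in overexpression, as was ISPG, while ISPE was higher. These markers were bright, and in the brightest bin of all tested probe sets the median log2 change was -0.17. The part of that lean in the lower leaf sums was not tested. The 7 root markers summed to 698.9 to 732.7 in wild type and 293.2 to 333.2 in overexpression (3 of 6 tested fell, and Lsi2 read at most 1.6). Lsi1 was the largest part of the root sums, at 370.6 to 458.2 in wild type and 123.1 to 194 in overexpression. NRAMP5 and HKT1;5 had log2 changes of -0.11 and -0.04. The 4 secondary wall markers summed to 335.6 to 507.5 and 103.6 to 265.8 (2 of 4 fell), and the 3 epidermis markers to 2652 to 2814 and 1834 to 2188 (2 of 3 fell). The 4 markers of dividing cells summed to 3598 to 3691 and 3171 to 3291, with 1 of 3 tested higher and 1 lower. H2B.5, the lower one, was the largest part of these sums, at 3072 to 3174.1 in wild type and 2386.7 to 2402.4 in overexpression. H2B.10 and PCNA had log2 changes of 0.92 and 0.02. Fewer cells of a type and less RNA per cell cannot be told apart in whole leaves, and the part of cell makeup in the values of ISPE and ISPG was not tested.

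The genes whose pattern over the 6 arrays was most like that of each member were found by Pearson's r of log2(signal + 3) among 2056 other genes with an informative name. With 3 arrays a genotype, r is high for any gene that separates the genotypes and has a like spread within them, and 26 genes had r over 0.95 with ISPE and 38 with ISPG. For ISPE the closest were the MAP kinase gene MPK6 (r = 0.99), the beta-glucosidase gene BGLU12 (r = 0.99) and CCDA2 (r = 0.98). MPK6 read 431.6, 431.3 and 422.5 in wild type leaves and 502.8, 543.5 and 498.9 with overexpression. BGLU12 went from 237.6, 240.8 and 211 to 581.6, 928.8 and 551.9. Both also peaked on overexpression replicate 2 and were lowest on wild type replicate 3. For ISPG the closest were the beta-expansin gene EXPB17 (r = 0.99), OsCASPL2D1 (r = 0.99) and MOR1 (r = 0.98). OsCASPL2D1 read 2682.4, 2700 and 2526.1 in wild type leaves and 2138.6, 2336.2 and 2227.2 with overexpression, in the same order of arrays as ISPG. EXPB17 was dim, at 12.1 to 27.9 over all arrays, and MOR1 read 226.5, 226.3 and 221 in wild type leaves and 165.9, 196.3 and 177.3 with overexpression.

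Settings of the analysis moved the members less than their replicate spread. For the settings that leave out an array this was fixed in advance, because 1 array of 3 cannot move a mean by more. The log2 change of ISPE ran from 0.64 to 0.83 over 14 alternatives, and that of ISPG from -0.50 to -0.32. The threshold that chose the genes was met by ISPE in 13 of 14 and by ISPG in 6 of 14. ISPE missed it without wild type replicate 3 (0.69 ± 0.17, SE). ISPG missed it under quantile normalization, with no filter, without the variance trend, and without each of wild type replicates 1 to 3 and overexpression replicates 1 and 3. The lowest values of ISPE (0.64 ± 0.14, SE) and ISPG (-0.50 ± 0.10, SE) both came without overexpression replicate 2.

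**Figure D5:**
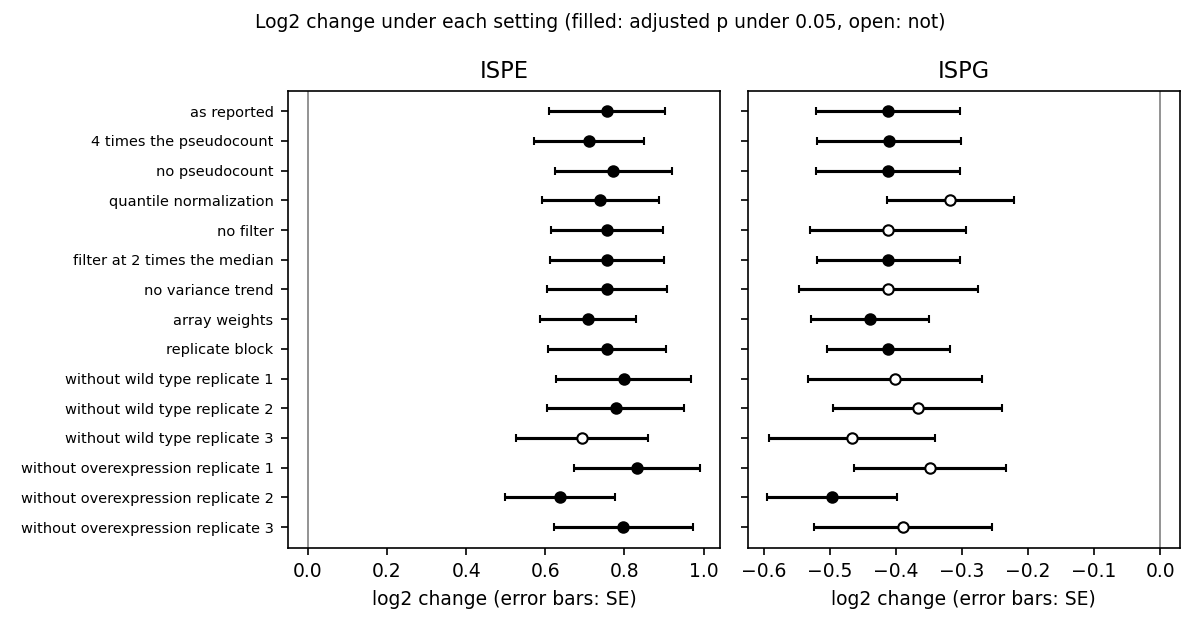
Log2 change of ISPE and ISPG as reported and under 14 alternative settings, with SE from limma. Filled points met the adjusted p threshold of 0.05 that chose the genes and open points did not. ISPE stays between 0.64 and 0.83 with 1 open point, and ISPG between -0.50 and -0.32 with 8.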

How the data were processed

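The authors deposited linear intensities per probe set for 6 arrays of 1 colour, computed in MAS5 according to the submitters' processing notes, from 5 µg of total RNA, per the labels' protocols. The target of the scaling is not given in the sources used here, but the 2% trimmed mean was 100.0 on each array, so values were taken as already scaled. Detection calls were not used here, so changes of dim genes are uncertain in size. Of 57381 probe sets, 187 controls stayed out of the fit, 22436 had 1 gene in the probe annotation, 95 several and 34663 none. All 17905 genes were found in the RefSeq gene table through their Entrez IDs, from which only names were taken.

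Signals were tested as log2(signal + 3), 3 being the rounded 20th percentile of non-control values. Folds on this scale understate changes of low signals. The 28456 probe sets whose mean reached the non-control median (16.8) were fitted with genotype alone in limma 3.58.1 in R 4.3.3 (lmFit and a two-sided eBayes test with variance trend, tested on simulated data), with Benjamini-Hochberg adjustment over all of them and a threshold of 0.05. Where a gene had several tested probe sets, the brightest was used. "Rose" and "fell" mark an adjusted p under 0.05.

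The members and lists were chosen with earlier results of these data known. Named were all matched MEP pathway genes, at most 4 genes of each other list with the smallest p, and the 3 genes most like each member. PSY1 and PSY2 were added beside PSY3. Lists were matched by symbol or synonym. Most names planned for the branches, and some planned for the MEP pathway itself, found no gene in the annotation. Alternatives covered the pseudocount, normalization, filter, variance trend, array weights, replicate block, probe sets per gene and each array left out. No 2 arrays were identical, and their small number limits the precision. The OsCGA1 transcript itself was not analysed here.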

Additional observations from a re-analysis of the deposited data

How the results depend on the processing

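The log2 changes of ISPE and ISPG kept their direction in all 14 alternatives, while ISPG met the threshold in 6 of them. Both changes moved by less than the pooled SD of the replicates, a limit that leaving out 1 of 3 arrays cannot exceed. The count of probe sets that passed was 4578 as reported (2461 higher and 2117 lower), 7945 with array weights (3708 higher and 4237 lower) and 2218 to 5497 with single arrays left out. Without wild type replicates 2 and 3 the split was 1454 higher and 843 lower, and 1601 higher and 886 lower. Of the 5 other MEP pathway genes, 1 passed with array weights, and 0 to 2 with single arrays left out, the 2 being CLA1 and ISPH without overexpression replicate 2. Of the 12 downstream genes, 4 passed with array weights, 0 with the replicate block, and 0 to 2 with single arrays left out. The genes that passed differed between settings. Without overexpression replicate 1 it was PSY3, higher, and without wild type replicate 3 it was VTE1, lower. Without overexpression replicate 2, CPS1 and the geranylgeranyl reductase gene CHLP passed, both lower. With array weights all of these passed, in the same directions. The mevalonate gene did not pass in any of 15. Of the other isoprenoid genes, ks1, HPT1 and HMG3 changed sign. The value of ks1 was 0.02 as reported, -0.015 with quantile normalization, -0.00072 with array weights and -0.18 to 0.13 with arrays left out. HPT1 was at -0.16, at 0.0012 with the mean over its probe sets and at -0.29 to 0.016 with arrays left out. HMG3 was at 0.33, at -0.032 with array weights and at -0.23 to 0.66 with arrays left out. The cause of these moves was not tested. Settings that leave out an array also have fewer samples.

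With the replicate number as a block 3342 probe sets passed, ISPE was at 0.76 ± 0.15 and ISPG at -0.41 ± 0.09 (SE). Deviations of same-numbered arrays correlated at 0.10, -0.01 and -0.06, and those of the other pairs at -0.10 to 0.12. They showed no sign that the numbers pair the arrays, but with 3 arrays a genotype they cannot exclude it. A mean over probe sets was not run for ISPE and ISPG, which have 1 each.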
